A study of Mus musculus with 2 samples.

Results

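The S100a genes encode small calcium-binding proteins, and their RNA was followed through 12 clusters of cells from the submandibular salivary gland of the mouse. The members were the 10 genes S100a1, S100a4, S100a6, S100a8, S100a9, S100a10, S100a11, S100a13, S100a14 and S100a16, chosen by name, among 20140 genes with a value. All 10 had a row for both libraries.

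The glands came from female C57BL6/J mice aged 14 weeks. In the ligated group, metal clips closed the main ducts of both the submandibular and the sublingual gland for 14 days, and in the mock group the ducts were exposed without clipping and the animals healed for the same 14 days. Each group was 1 droplet single-cell library made from 2 pooled glands, so no difference between groups has a replicate check, no test was possible, and animal, handling and surgery cannot be told apart. Cells bearing EpCAM (a surface protein of epithelium) or Ter119 (a surface antigen of red cells) were depleted with beads, and dead cells were removed, so the libraries were enriched for stroma and cell numbers describe what was left.

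S100 proteins bind calcium through paired EF-hand motifs, usually as dimers, and the calcium-bound form opens a surface that grips target proteins such as annexins. Inside cells they act on the cytoskeleton, on membranes and on enzymes. Some are also released, and S100A8 with S100A9, the pair called calprotectin, is a main cytosolic protein of neutrophils and signals through Toll-like receptor 4 and the receptor RAGE.

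A level here is a mean over the cells of a cluster, in UMIs (counted RNA molecules) of the gene per 10000 UMIs of the cell. A difference is log2((ligated + 0.1)/(mock + 0.1)). The added 0.1 makes changes of low genes look smaller than they are. A pair of a gene and a cluster passed the size rule where the higher of the library levels was at least 0.5 and the difference at least 1 in size. The cell numbers recovered from the means gave 11406 ligated and 4199 mock cells. Differences were read in 9 clusters, those where both libraries had 50 cells or more. Not compared were cluster 8 (25 mock cells), cluster 9 (17 mock cells) and cluster 11 (22 mock cells). The compared clusters were named from marker genes as endothelial-like (cluster 0, 2948 ligated and 2363 mock cells), natural killer-like (cluster 1, 3353 and 679), T cell-like (cluster 2, 1393 and 155), fibroblast-like (cluster 3, 1149 and 188), a second endothelial-like cluster (cluster 4, 531 and 226), macrophage-like (cluster 5, 680 and 77), mural-like (cluster 6, 420 and 161), ductal-like (cluster 7, 278 and 201) and erythroid-like (cluster 10, 60 and 85). The tissue's own ductal cells were present in spite of the EpCAM depletion, with 9 of 10 ductal markers at 0.5 or more.

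The members lie in 2 groups on chromosome 3 (GENCODE vM21 annotation, GRCm38). S100a1 (chr3:90511034-90514392, minus strand), S100a13 (chr3:90514435-90524581, plus), S100a14 (chr3:90526856-90528837, plus), S100a16 (chr3:90537254-90543151, plus), S100a4 (chr3:90603771-90606045, plus), S100a6 (chr3:90612882-90624181, plus), S100a8 (chr3:90668978-90670035, plus) and S100a9 (chr3:90692632-90695721, minus) occupy 184.688 kb. S100a11 (chr3:93520488-93526287, plus) and S100a10 (chr3:93555080-93564643, plus) follow after a gap of 2.82 Mb. The spans of S100a1 and S100a13 start 43 bases apart on opposite strands, S100a5 lies between S100a4 and S100a6, and no protein-coding gene lies between S100a8 and S100a9. An exon of S100a4 overlaps the gene model Gm42674 on the same strand, and RNA of the pair cannot be told apart by position there.

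The main results turn on 4 of these genes, so the 250 bases before the RefSeq start of each are shown, 5' to 3' on the gene's own strand, from RefSeq for GRCm38.p6. The RefSeq starts of S100a6 and S100a8 lie inside the GENCODE spans given above, so their windows reach into those spans. RefSeq windows were found for 8 of the 10 members, not for S100a10 or S100a14. Capitals mark matches, on either strand, to the TATA box (TATAAA), the C/EBP motif (TTGCNNAA, bound by factors of myeloid cells among others) or the AP-1 motif (TGANTCA).
S100a6 (chr3:90612644-90612893, plus): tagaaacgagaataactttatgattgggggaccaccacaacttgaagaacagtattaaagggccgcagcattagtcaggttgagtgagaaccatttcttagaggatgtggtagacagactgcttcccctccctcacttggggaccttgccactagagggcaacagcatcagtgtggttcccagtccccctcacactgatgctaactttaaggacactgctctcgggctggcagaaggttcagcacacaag
S100a4 (chr3:90603520-90603769, plus): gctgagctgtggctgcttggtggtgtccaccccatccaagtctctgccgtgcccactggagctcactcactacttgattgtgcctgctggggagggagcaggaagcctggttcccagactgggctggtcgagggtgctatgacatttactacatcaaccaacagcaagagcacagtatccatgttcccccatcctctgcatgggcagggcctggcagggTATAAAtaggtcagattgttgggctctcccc
S100a8 (chr3:90668821-90669070, plus): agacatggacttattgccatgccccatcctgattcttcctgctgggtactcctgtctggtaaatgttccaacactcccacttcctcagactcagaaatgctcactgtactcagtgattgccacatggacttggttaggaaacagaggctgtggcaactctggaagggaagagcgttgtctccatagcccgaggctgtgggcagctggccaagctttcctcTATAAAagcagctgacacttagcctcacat
S100a9 (chr3:90695722-90695971, minus): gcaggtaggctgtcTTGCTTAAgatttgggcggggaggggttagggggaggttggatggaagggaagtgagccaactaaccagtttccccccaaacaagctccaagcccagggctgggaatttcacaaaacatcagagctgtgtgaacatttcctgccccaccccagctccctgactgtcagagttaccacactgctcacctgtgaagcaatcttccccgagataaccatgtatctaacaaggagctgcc
The TATA box stood 31 bases before the start of S100a4 and 30 before that of S100a8. The C/EBP word of S100a9, TTGCTTAA, began 236 bases before its start, and the S100a6 window held none of the 3 motifs. Of 32851 such windows over all genes, 12.4% held TATAAA, 9.56% TTGCNNAA and 6.75% TGANTCA. S100a11 held the AP-1 word TGAGTCA at 136 and at 38 bases before its start, and 1 of the 2 windows of S100a16 held TGAATCA at 192. A match of letters is not evidence of binding.

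S100a6 RNA was higher in the ligated library in all 9 compared clusters, most of all in ductal-like cells, although the direction turned in endothelial-like, macrophage-like and mural-like cells once background RNA was subtracted. S100a4 RNA lay mostly in the natural killer-like and T cell-like clusters and was lower in ligated macrophage-like cells. S100a4 was higher in 3 clusters that also held more RNA of other cell types, and the part of that RNA was not tested. S100a1 was highest in ductal-like cells and S100a16 in the second endothelial-like cluster, S100a13 differed little anywhere, and the calprotectin genes S100a8 and S100a9 lay mostly, in the mock library, in 1 cell.

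Over the 9 compared clusters the 10 members make 90 pairs of a gene and a cluster, of which 58 reached the minimum level. Of these 58, 8 were past the size rule. The ligated library was above in 7 and below in 1. That is 13.8%, beside 11.1% of all genes over the same clusters, so the members as a set passed about as often as any gene. By cluster, members past the rule were 1 of 6 in endothelial-like cells (6.6% of all genes there), 0 of 6 in natural killer-like cells (4.56% of all genes), 0 of 5 in T cell-like cells (5.34%), 0 of 7 in fibroblast-like cells (9.78%) and 0 of 7 in the second endothelial-like cluster (6.1%). They were 1 of 6 in macrophage-like cells (8.48% of all genes), 1 of 7 in mural-like cells (9.41%), 2 of 7 in ductal-like cells (26.5%) and 3 of 7 in erythroid-like cells (25.2%). In the erythroid-like cluster the median difference of all genes was itself 0.56, and that of the members was 0.55, so differences there are best read against that shift. Erythroid markers in this cluster summed to 1921 ligated and 4415 mock, endothelial markers to 77.2 and 89.8, and macrophage markers to 42.5 and 19.8. For comparison, endothelial markers summed to 163 and 199 in endothelial-like cells (cluster 0). The part of cells or RNA of these types in the differences was not tested. In ductal-like cells the members' median difference was 0.45 and that of all genes -0.09.

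**Figure D1:**
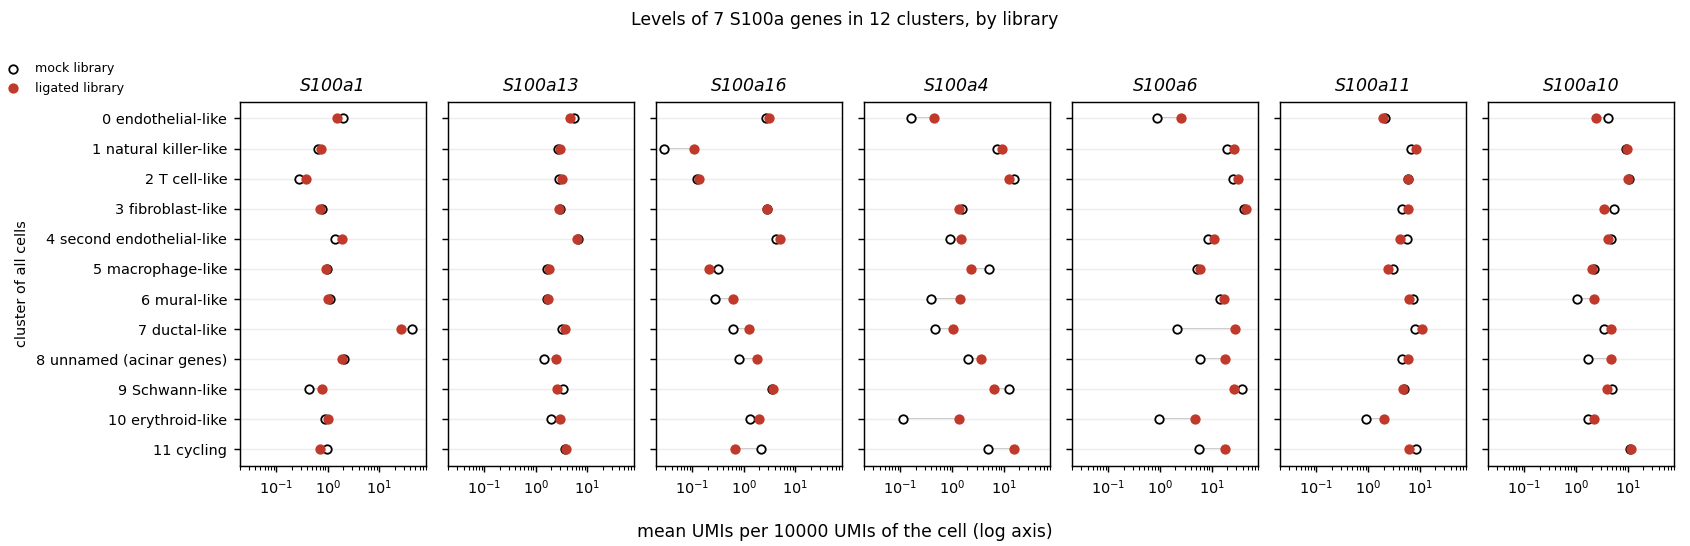
Level of 7 members (UMIs per 10000 UMIs, log10 axis) in each of the 12 clusters, with the ligated and the mock library as separate points. S100a6 was highest in fibroblast-like cells (45.8 ligated, 43.1 mock) and S100a1 in ductal-like cells (26.05 ligated, 42.1 mock).

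S100a6, or calcyclin, binds annexins and the calcyclin-binding protein and is abundant in fibroblasts and many epithelia. With both libraries together it ranged from 1.79 in endothelial-like cells to 45.5 in fibroblast-like cells, a 25.5-fold range. In fibroblast-like cells it stood at 45.8 ligated and 43.1 mock, a difference of 0.09, and in T cell-like cells at 32.4 and 25.7 (0.33). In natural killer-like cells it stood at 26.9 and 19.5 (0.47), and in mural-like cells at 17.6 and 14.7 (0.25). The clusters with the highest mock levels thus had small differences. The second endothelial-like cluster gave 11.3 and 8.51 (0.40) and macrophage-like cells 6.02 and 5.31 (0.18), both also under the size rule. Macrophage-like cells held much RNA of other types, and after the subtraction described next their S100a6 difference was -2.26, on the other side. The mural-like difference became -0.16. The 9 differences ran from 0.09 to 3.69 with a median of 0.40.

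In ductal-like cells S100a6 had a ligated level of 28.5 and a mock level of 2.12, 13.4-fold apart (difference 3.69). The mock level was among its lowest, and the ligated level was close to that of natural killer-like cells. This was the largest difference of any member that reached the minimum level in a compared cluster. Ductal markers moved in the same cluster: of 9 with the minimum, 6 were higher in the ligated library past the rule and 0 lower, with Klk1, a kallikrein protease of duct cells, at 898 and 346, Krt7, a keratin of simple epithelium, at 22.3 and 8.23, and Epcam at 5.59 and 1.53. Their summed level was 960 ligated and 375 mock. RNA of other cell types moved too: fibroblast markers summed to 6.16 and 1.29 and macrophage markers to 4.23 and 0.274 in these cells.

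Free RNA in the droplets can carry a gene into cells that do not make it, so each cluster was compared with its library. Markers of other cell types stood, at their median, at 21.6% of the ligated and 8.04% of the mock library mean in ductal-like cells, whereas S100a6 stood at 139% and 26.6%. After the library's mean profile was subtracted in proportion to such median shares, S100a6 in ductal-like cells was 24.1 and 1.48, a difference of 3.93. The result was thus as large with the subtraction. The EpCAM depletion acted on this cluster in both libraries, and its part in the difference was not tested.

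S100a6 passed the rule in a pair of other clusters. In endothelial-like cells it was 2.50 ligated and 0.889 mock (1.40), and in erythroid-like cells 4.75 and 0.962 (2.19). These levels were small shares of what the libraries held. S100a6 in endothelial-like cells was 12.2% of its ligated and 11.1% of its mock library mean, beside 9.56% and 3.88% for markers of other cell types there, and in erythroid-like cells those markers stood at 18.7% and 1.85%. After the subtraction the difference was -0.09 in endothelial-like and 0.13 in erythroid-like cells, both under the rule.

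In the clusters too small to compare, S100a6 was 18.3 ligated and 6.02 mock in cluster 8, which expressed acinar genes, 27.6 and 38.8 in Schwann-like cells (cluster 9), and 18.3 and 5.67 in cycling cells (cluster 11), whose ligated cells carried lymphocyte markers and mock cells endothelial markers. In cluster 8 acinar markers summed to 136 ligated and 1611 mock, and markers of other types stood at 106% of the ligated library mean and at 0% of the mock, so S100a6 there is not compared between like cells. In separate tables of a subset of the cells, named for Pdgfr and Gli1, clusters 0, 2 and 3 are called fibroblast-like, mural-like and endothelial-like here. Markers of these subset clusters are not shown. There S100a6 was 46.6 and 43.8 (0.09) in fibroblast-like cells and 14.2 and 14.3 (-0.01) in mural-like cells. It was 14.8 and 4.07 (1.83) in endothelial-like cells, from 260 ligated and 82 mock cells. Subset clusters 1 and 4, with 14 and 10 mock cells, gave 26.5 and 26.7 (-0.01) and 43.6 and 39.8 (0.13). Schwann-like cells were the only one of the 12 clusters with the mock library above.

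**Figure D2:**
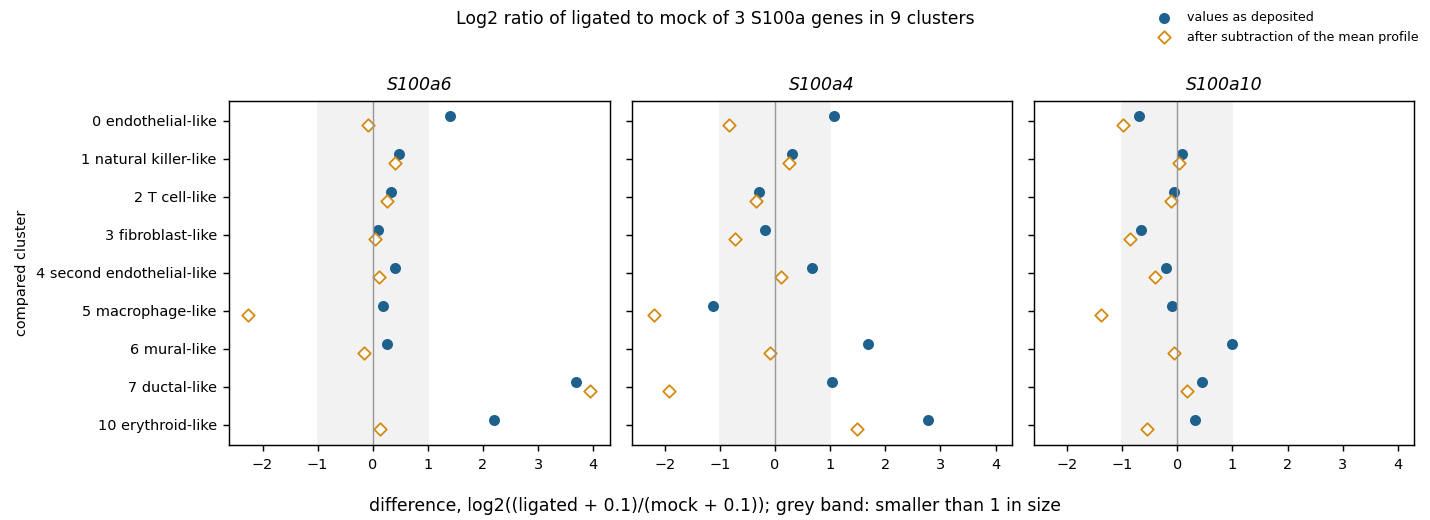
Difference of S100a6, S100a4 and S100a10 between libraries in the 9 compared clusters, as log2((ligated + 0.1)/(mock + 0.1)), from the deposited values (filled circles) and after subtraction of the library's mean profile (open diamonds), with differences under 1 in size in grey. S100a6 in ductal-like cells (3.69, and 3.93 after subtraction) is the point farthest right, and S100a4 in macrophage-like cells (-1.13, and -2.20 after subtraction) lies on the other side. After subtraction S100a6 (-2.26) and S100a10 (-1.39) in macrophage-like cells lie there too. So does S100a4 in ductal-like cells (-1.93), where the subtraction set the ligated level to 0.

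S100a4, known as metastasin and as fibroblast-specific protein, binds non-muscle myosin and is used as a marker of fibroblasts and of migrating cells. In these libraries it was not highest in fibroblast-like cells, where it stood at 1.36 ligated and 1.57 mock. It was highest in T cell-like cells, at 12.96 and 15.9 (-0.30), followed by cycling cells at 15.7 and 5.04 and natural killer-like cells at 9.36 and 7.59 (0.30). The cycling cluster held different cells in each library, with T cell markers at a summed 33.8 ligated and 5.36 mock, natural killer markers at 22.6 and 6.09 and endothelial markers at 9.89 and 68.1, so its levels are not those of 1 cell type. The natural killer-like and T cell-like clusters were 35.8% of all cells and held 82.9% of the S100a4 expression summed over cells, while fibroblast-like cells, 8.57% of all cells, held 2.70%. In the tables of the Pdgfr and Gli1 subset, fibroblast-like cells had S100a4 at 1.07 ligated and 1.52 mock (-0.47), again low for this gene. It was not low in all cells outside the lymphocyte clusters. Subset cluster 1, with 435 ligated and 14 mock cells, had 7.36 and 10.5, and Schwann-like cells had 6.42 and 12.96.

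In macrophage-like cells S100a4 was listed at 2.30 ligated and 5.16 mock, 2.24-fold lower after ligation (-1.13), and this was the only one of the 58 pairs past the rule in that direction. Monocytes and other motile myeloid cells are known to express S100a4. Of the 4 monocyte markers with the minimum level in this cluster, 3 were lower in the ligated library past the rule: Plac8 was 0.507 and 2.47, Ccr2, the chemokine receptor of inflammatory monocytes, 0.449 and 1.54, and Chil3 0.0851 and 0.664. Lyz2, the lysozyme shared by monocytes and macrophages, was 25.6 and 24.3, and the macrophage markers summed to 175 and 144. The mock value rests on 77 cells, and the part of the monocyte-marked cells in the S100a4 difference was not tested. After subtraction of the mean profile S100a4 differed by -2.20 in macrophage-like cells. The move was not particular to S100a4: S100a6, S100a10 and S100a11 became -2.26, -1.39 and -1.17 there. The share subtracted was 25.2% of the ligated and 11.2% of the mock library mean.

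S100a4 was higher in the ligated library past the rule in mural-like cells (1.46 and 0.386, difference 1.69), ductal-like cells (1.05 and 0.462, 1.03) and erythroid-like cells (1.35 and 0.113, 2.77). In endothelial-like cells it differed by 1.07 but reached only 0.456 and 0.165, under the minimum. In mural-like cells natural killer markers, whose cells hold much of the S100a4, summed to 5.34 ligated and 0.0966 mock, with 0 of 9 at 0 in the ligated and 4 at 0 in the mock library. In ductal-like cells the same 9 markers summed to 5.11 and 0.863. The part of such RNA in the S100a4 differences was not tested. S100a4 was 28.1% of its ligated and 17.1% of its mock library mean in mural-like cells, beside 22.4% and 2.82% for markers of other types, and 20.1% and 20.5% in ductal-like cells. After the subtraction its difference was -0.09 in mural-like cells, -1.93 in ductal-like cells and 1.48 in erythroid-like cells. These rest on levels under the minimum of 0.5: 0.296 and 0.322 in mural-like cells, 0 (set to 0 by the subtraction) and 0.281 in ductal-like cells, and 0.380 and 0.0717 in erythroid-like cells. In the clusters too small to compare, S100a4 was 3.71 and 2.01 in cluster 8 and 6.42 and 12.96 in Schwann-like cells. In the mural-like cells of the subset tables (274 ligated and 128 mock cells) it was 0.488 and 0.329 (0.45), under the rule and the minimum.

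S100a10, or p11, is the light chain that pairs with annexin A2 at the plasma membrane and helps assemble plasminogen activation there. It was spread over all 12 clusters, from 1.88 in mural-like to 11.4 in cycling cells with both libraries together. T cell-like cells stood at 10.2 ligated and 10.6 mock (-0.06) and natural killer-like cells at 9.87 and 9.33 (0.08), so the main holders of the gene were level between libraries. It was lower in the ligated library in endothelial-like cells, at 2.49 and 4.11 (-0.70), and in fibroblast-like cells, at 3.44 and 5.49 (-0.66), and higher in mural-like cells, at 2.20 and 1.05 (0.99). None of these passed the rule, the mural-like value lying just under it. After the subtraction the mural-like levels were 0.869 and 0.910 (-0.06), in cells whose natural killer markers are given above. The part of natural killer RNA in this difference was not tested. In the mural-like cells of the subset tables (274 ligated and 128 mock cells) S100a10 was 0.530 and 0.144 (1.37), and in its fibroblast-like cells (949 and 167) 3.03 and 5.36 (-0.80). The subset cells come from the same 2 libraries and add no replicate. In ductal-like cells it was 4.67 and 3.40 (0.45), and in macrophage-like cells 2.06 and 2.21 (-0.10). After the subtraction its macrophage-like difference was -1.39. Anxa2, the partner of S100a10, was 4.28 and 6.49 (-0.59) in endothelial-like cells and 5.76 and 5.87 in fibroblast-like cells.

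S100a11, or calgizzarin, binds annexin A1 and acts in membrane repair and keratinocyte growth. It was highest in ductal-like cells, at 11.01 ligated and 8.13 mock (0.43), then in natural killer-like cells at 8.35 and 6.94 (0.26). Fibroblast-like cells had 5.83 and 4.46 (0.38), mural-like cells 6.12 and 7.44 (-0.28) and the second endothelial-like cluster 4.17 and 5.64 (-0.42). T cell-like cells had 6.08 and 5.99 (0.02), endothelial-like cells 1.96 and 2.18 (-0.15) and macrophage-like cells 2.47 and 3.03 (-0.29, or -1.17 after the subtraction). It passed the rule only in erythroid-like cells, its lowest cluster, at 2.04 and 0.916 (1.08), which is 0.51 above the shift of all genes there and 0.26 after the subtraction. RefSeq lists a pseudogene, S100a11-ps, on chromosome 12, and how reads were shared with it is not given in the sources used here. Anxa1, which binds S100a11, was 6.36 ligated and 2.78 mock in ductal-like cells (1.17).

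S100a1 is best known in muscle, where it acts on calcium handling. Ductal-like cells carried it at 26.05 ligated and 42.1 mock (-0.69), 32.8 together, and the lowest cluster, T cell-like cells, carried it at 0.364, a 90.0-fold range. The ductal-like cluster was 3.07% of all cells and held 47.6% of the S100a1 expression. In the same ductal-like cells, then, S100a1 was lower and S100a6 higher in the ligated library, with differences of -0.69 and 3.69. Outside the ductal-like cluster S100a1 stayed between 0.274 and 2.09 in every library and cluster, with 1.53 and 2.02 in endothelial-like cells (-0.38) and 1.92 and 1.39 in the second endothelial-like cluster (0.44).

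**Figure D3:**
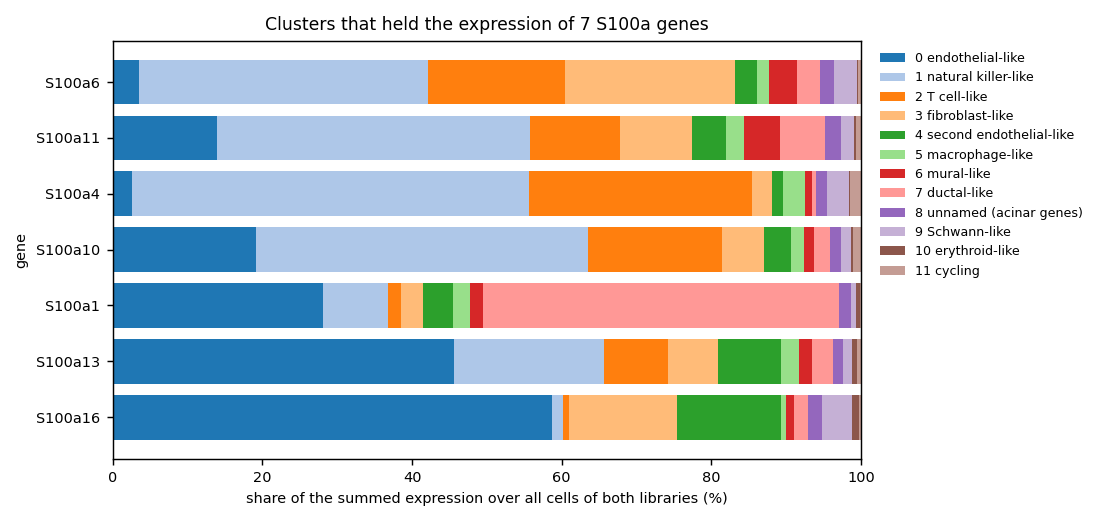
Share of each member's expression, summed over all cells of both libraries, that each cluster held (percent). S100a4 lay mainly in natural killer-like and T cell-like cells, S100a16 in endothelial-like cells and S100a1 in ductal-like cells (47.6%) and endothelial-like cells (28.1%).

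S100a16, a widely expressed member, was highest in the second endothelial-like cluster. It was 5.09 ligated and 4.28 mock there (0.25) and 3.09 and 2.70 in endothelial-like cells (0.19), and these clusters, 38.9% of all cells, held 72.6% of its expression, a share that also reflects their cell numbers. Schwann-like cells had 3.68 and 3.54, above endothelial-like cluster 0, and fibroblast-like cells 2.86 and 2.80 (0.03), close to it. It was low in natural killer-like cells, at 0.109 and 0.0285, and in T cell-like cells, at 0.133 and 0.122. The differences closest to the rule were 0.95 in ductal-like cells (1.27 and 0.614) and 0.92 in mural-like cells (0.606 and 0.274). After the subtraction they were 0.90 in ductal-like and 0.14 in mural-like cells.

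S100a13, which helps release fibroblast growth factor 1 and interleukin 1 alpha from cells, was the most even of the members above the minimum level, with a 3.75-fold range over clusters. It was highest in the second endothelial-like cluster, at 6.35 ligated and 6.67 mock (-0.07), and 4.56 and 5.41 in endothelial-like cells (-0.24). Ductal-like cells had 3.70 and 3.29 (0.16) and T cell-like cells 3.21 and 2.84 (0.17). Mural-like cells were lowest at 1.76 and 1.62. All 9 differences lay between -0.24 and 0.55, the highest in the erythroid-like cluster whose genes were shifted as a whole.

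S100a14, a member of epithelial cells, was scarcely found. Its highest level with both libraries together was 0.0288, in mural-like cells, and it was listed at 0 in 7 of the 12 clusters. In ductal-like cells no UMI was found in 479 cells, which allows up to 0.626% of such cells to have one. This limit, like those below, is 3 divided by the number of cells without a UMI. In natural killer-like and in fibroblast-like cells its whole value was 1 UMI in 1 ligated cell.

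S100a8 and S100a9 stood apart from the rest of the family. In cycling cells they were listed at 16.2 and 20.0 in the mock library and at 0 in the ligated library, where 59 cells without a UMI allow up to 5.08% of cells with one. The exact mock values matched 1 cell of 30880 UMIs with 1099 UMIs of S100a8 and 1357 of S100a9, together 7.95% of that cell's RNA. Its total was the highest of the 20 mock cells of this cluster whose totals could be recovered, which ran from 1621 to 30880 with a median of 13748. Whether it was 1 cell or a droplet with several was not tested.

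The same cell alone, among the cells of its cluster in both libraries, carried 91 genes, with 2708 UMIs together. They include Wfdc21 (37 UMIs), Mmp8, the neutrophil collagenase (28), Il1b, the cytokine interleukin 1 beta (25), Slpi (15), Mmp9 (10), Hp (10), Il1r2 (4) and Cd177, a neutrophil surface protein (3). It held 89.1% of all S100a8 and 99.1% of all S100a9 expression of the mock library. The mock library means of 0.0951 for S100a8 and 0.106 for S100a9 become 0.0104 and 0.000999 without it, beside ligated means of 0.00930 and 0.00737. The sign of the library difference in S100a9 thus rests on 1 cell.

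**Figure D4:**
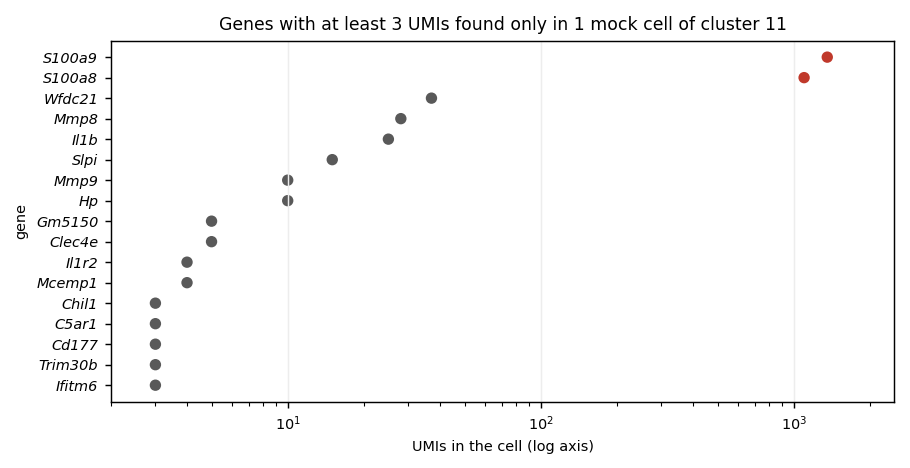
UMIs (log10 axis) of genes with at least 3 UMIs found, within cluster 11, only in the 1 mock cell holding S100a8 and S100a9. The cell had 30880 UMIs, and genes it shared with other cells of the cluster are not shown. Of the genes shown, S100a9 had 1357 and S100a8 1099 UMIs, followed by Wfdc21 with 37 and Mmp8 with 28.

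Macrophage-like cells held most of the remaining calprotectin RNA. S100a8 was 0.125 ligated and 0.480 mock there, and the mock value again equals 1 cell, with 44 UMIs of 11906, which also carried 27 UMIs of Mmp8. S100a9 was listed at 0 in those 77 mock cells, which allows up to 3.90% of such cells with a UMI, and was 0.111 in ligated cells. The ligated macrophage-like values, 80.4% of that library's S100a8 and 89.5% of its S100a9 expression, did not equal those of 1 cell. In the natural killer-like, T cell-like, fibroblast-like and mural-like clusters the whole S100a8 value was 1 UMI in 1 ligated cell each. Of 12 neutrophil markers, 8 had a row (Ly6g, Retnlg, Ngp and Camp are not analysed here). They summed to 0.328 ligated and 0.572 mock in macrophage-like cells, 1.13 and 0.166 in mural-like cells, and 0.0899 and 1.88 in cycling cells. No cluster was named for neutrophils.

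The mean over a whole library mixes level and cell numbers, and fewer cells of a type cannot be told from less RNA per cell in it. S100a6 was 20.6 ligated and 7.99 mock (1.35) with each library's own cells, but 0.60 when the ligated clusters were weighted by the mock library's cell mix. For S100a4 the means were 5.20 and 2.25 (1.17), and 0.25 at the mock mix. S100a1 was 1.62 and 3.48 (-1.06), and -0.48 at the mock mix. S100a10 (5.92 and 5.08), S100a11 (5.42 and 3.91), S100a13 (3.43 and 4.41) and S100a16 (1.58 and 1.99) differed by less than 0.5. At the mock mix S100a10 turned from 0.22 to -0.26 and S100a16 from -0.31 to 0.21. S100a11 was 0.07 and S100a13 -0.13 at that mix.

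Partners of the S100 proteins were read from lists, beside the 11.1% of all genes past the rule over these clusters. Of the annexins, which dock on S100 dimers, 43 pairs of a gene and a cluster reached the minimum level, and 1 was higher and 2 were lower past the rule: Anxa1 in ductal-like cells (above), and Anxa11 in mural-like (0.335 and 0.925) and ductal-like cells (0.691 and 1.77). Of 58 pairs of intracellular targets and of the plasmin system 3 were higher and 1 lower, among them Ahnak, a giant scaffold bound by S100a10 with annexin A2, at 2.02 and 0.721 in ductal-like cells (1.37) and 1.67 and 3.53 in macrophage-like cells (-1.03). Ahnak thus stood on the same side as S100a4 in macrophage-like cells and as S100a6 in ductal-like cells. S100a10, which binds it, differed by only -0.10 in macrophage-like and 0.45 in ductal-like cells. Cacybp, which encodes the calcyclin-binding protein, was 1.13 and 1.74 in ductal-like cells (-0.57), on the other side from S100a6. In ductal-like cells 26.5% of all genes passed the rule, and a link between S100a6 and its partners was not tested. Of 26 pairs of receptors of released S100 proteins 5 were higher and 2 lower. Of the 5, 3 were Cd69, an activation antigen of lymphocytes, in macrophage-like (2.51 and 0.832), mural-like (0.577 and listed at 0) and erythroid-like cells (1.30 and 0.146). Among the others were Bsg, the receptor basigin, at 3.46 and 1.29 in ductal-like cells (1.36) and Cd36, a scavenger receptor, at 2.37 and 5.44 in endothelial-like cells (-1.17). Ager, which encodes RAGE, was highest in mural-like cells, at 0.0562 ligated and 0.0935 mock. The other EF-hand genes (calmodulins and others) gave 1 higher and 1 lower of 64. A list of neutrophil granule genes gave 2 higher and 0 lower of 3, the higher ones in mural-like and erythroid-like cells. Of the other S100 genes, 0 reached the minimum in a compared cluster, and S100b, a glial marker, was highest in Schwann-like cells at 6.59 and 10.4.

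Across the 12 clusters, on log2(level + 0.1) with both libraries together, S100a6 ran most nearly with S100a11 among the members (Pearson r = 0.83, n = 12 clusters) and S100a4 with S100a10 (r = 0.77). S100a8 and S100a9 gave r = 0.996. Both were highest in cluster 11, from the 1 mock cell, and next in macrophage-like cells. The correlation without cluster 11 was not computed. The neighbours S100a1 and S100a13 on the chromosome gave r = 0.23. Among 3876 other genes, those nearest to S100a1 were Uqcrb (r = 0.96), a subunit of mitochondrial complex III, Tspan8 (0.95) and Uqcr11 (0.95), all highest in ductal-like cells. Nearest to S100a4 were Tox (0.92), a transcription factor of T cells, Bcl2 (0.90), a survival factor, and Itga4 (0.90), a leukocyte integrin. Nearest to S100a6 were Capg (0.89), an actin-capping protein, Ssbp2 (0.87) and Sesn3 (0.87), and nearest to S100a16 were Cpne8 (0.96), Rab6a (0.94) and Emp2 (0.94). Nearest to S100a10 were Lta4h (0.87), Tpt1 (0.86) and Vars (0.85), nearest to S100a11 Mettl26 (0.90), Dph3 (0.89) and Chd3 (0.86), and nearest to S100a13 Tmem234 (0.84), Ier2 (0.82) and Arl4a (0.81). These are descriptions over clusters that share libraries, with no test.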

How the data were processed

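The authors deposited tables of cluster means from 10X Genomics libraries, 1 pair for all cells and 1 for a subset, each with both libraries together and split by condition. The deposited values are means in UMIs per 10000, as read from the values, since all columns add up to 10000 and each joint value is the weighted mean of the split values with a largest residual of 9.2e-08. Cell Ranger 6.0.1, Seurat and mm10 are named in the submitters' processing notes, without their roles. Whether doublets were removed is not given in the sources used here, and none were called.

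Cell numbers came from the weight of the ligated library in each joint value (tolerance 2e-09) and from genes giving whole UMI numbers within 1e-06 (1093 to 1839 genes per cluster). A single cell was read from a member's value only where the fraction was met within 1e-11, except the macrophage-like cell (distance 1.75e-08 from a whole number). Other genes were assigned to such a cell where its total gave them whole UMI numbers within 1e-06. Total UMIs per cell, and so the depth behind each mean, are otherwise unknown. Names of 21 genes lost to calendar dates were restored from the row order, and 0 columns were left without a sample. The mean profile subtracted was each library's mean times the median share, in that library and cluster, of markers of other cell types with a library mean of at least 0.05.

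The named genes were the 10 members, the listed partners at 0.5 or more, the 3 best correlated genes of each member (among genes reaching 1) and cell type markers. For S100a8 and S100a9, whose highest level was that of 1 mock cell, the correlated genes are left out, and most partners are given as counts. The genes named from the single mock cell were chosen after their values were seen. Members and lists were chosen with earlier results of these data known. Calculations were tested on simulated data and used Python 3.11.15, numpy 2.4.6, pandas 2.3.3 and matplotlib 3.10.9. With 1 library in each group no test was run.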

Additional observations from a re-analysis of the deposited data

Results flagged for a closer look

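S100a4 differed between the libraries in opposite directions in different clusters. It was -1.13 in macrophage-like cells, 1.69 in mural-like cells, 1.03 in ductal-like cells and 2.77 in erythroid-like cells, as log2 differences of ligated over mock. With 1 library in each group, whether the clusters differ in this was not tested.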

How the results depend on the processing

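The 7 higher and 1 lower pairs of a member and a cluster depend on where the limits are set. With a pseudocount of 1 they were 3 and 0, with a minimum of 2 for the higher value they were 4 and 1, with a difference of at least 2 they were 3 and 0, and with a difference of at least 0.5 they were 13 and 4. Without a minimum they were 9 and 2. After subtraction of the library's mean profile they were 1 (S100a6 in ductal-like cells) and 4, all 4 in macrophage-like cells (S100a4 -2.20, S100a6 -2.26, S100a10 -1.39, S100a11 -1.17). The subtraction turned S100a4 in mural-like cells to -0.09, S100a4 in ductal-like cells to -1.93 (0 against 0.281, under the minimum, the 0 set by the subtraction) and S100a6 in endothelial-like cells to -0.09. Leaving out the erythroid-like and ductal-like clusters, chosen after seeing the data, left 2 higher and 1 lower. Pseudocount 0.01 gave 10 and 1 and centring on the median of all genes 8 and 1. The mock library means of S100a8 and S100a9, 0.0951 and 0.106, were 0.0104 and 0.000999 without the single cell of cluster 11, also chosen after seeing the data. Why the counts moved with the subtraction was not tested. No paired analysis was possible because each group has 1 library, and for the same reason no replicate could be left out. The smallest compared groups, 60 ligated erythroid-like and 77 mock macrophage-like cells, limit the precision of their means.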
